A study of Rattus norvegicus with 8 samples.

Results

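Adipose tissue-derived mesenchymal stem cells (ATSC) on livers with ischemia-reperfusion injury (IRI) were compared with ATSC on livers without that injury (non-IRI). The comparison holds 7 of the 8 arrays of the series: all 3 arrays titled IRI and all 4 titled non-IRI. The remaining array, ATSC kept in in vitro culture, entered no test and is given as a landmark. The donors were male Sprague-Dawley rats, and the cells were released from their subcutaneous fat with collagenase and were grown in medium with fetal bovine serum. The labels give neither the age of the rats nor the length of the injury. How the cells were taken from the liver, whether host cells came with them, and whether arrays of a group stand for separate animals are not given in the sources used here, so p-values measure only the spread between these samples.

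ATSC are connective tissue cells that adhere to plastic, make collagens and other matrix proteins, and are tested as a cell therapy because they secrete factors that act on injured tissue. In ischemia-reperfusion injury, blood flow to the liver is stopped and restored, which damages hepatocytes and draws in neutrophils. Hepatocytes make most proteins of blood plasma, among them albumin, apolipoproteins and clotting factors. In the acute phase response they also raise fibrinogen, hemopexin and serum amyloid A under the control of interleukin-6 and interleukin-1.

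All IRI arrays lay on 1 slide with the in vitro array, and all non-IRI arrays lay on the other slide, so group and slide cannot be told apart for any value below. Levels are processed signals on the log2 scale from which each array's 75th percentile was subtracted. That percentile was 156 to 291 signal units over the 8 arrays. Between 53.5% and 59.7% of spots were well above background on each array, and no spot was saturated. A probe was kept when it was well above background on all 7 liver arrays, which held for 20404 of 41012 probes, standing for 17581 genes. Of these genes, 2366 had 2 or more kept probes. Spearman correlations of levels were 0.972 to 0.991 within IRI, 0.963 to 0.984 within non-IRI and 0.951 to 0.976 between the groups.

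A kept probe was called when limma gave a Benjamini-Hochberg adjusted p under 0.05 over all kept probes. In ATSC on injured liver, 46 probes were higher (0.225% of those tested) and 410 were lower (2.01%). A fit that also paired arrays by their replicate number called 21 higher and 246 lower. In that fit non-IRI 4 has no partner and adds nothing to the difference, and leaving it out without pairing gave 16 higher and 282 lower. At an unadjusted p under 0.05, 1466 probes were higher and 1655 lower, and the median difference of all kept probes was 0.03. The values of the groups did not overlap for 1474 probes on the higher side (7.22%) and 1723 on the lower side (8.44%). Called rises had a median of 1.67 and called falls a median of −1.42 on the log2 scale. Leaving out single arrays moved the counts by more than 1.5 times. The higher count was 87 without IRI 1, 16 without IRI 2 and 10 without IRI 3. It was 21 where non-IRI 1 and 25 where non-IRI 2 was left out. The lower count was 227 without IRI 2 and 165 without IRI 3.

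**Figure D1:**
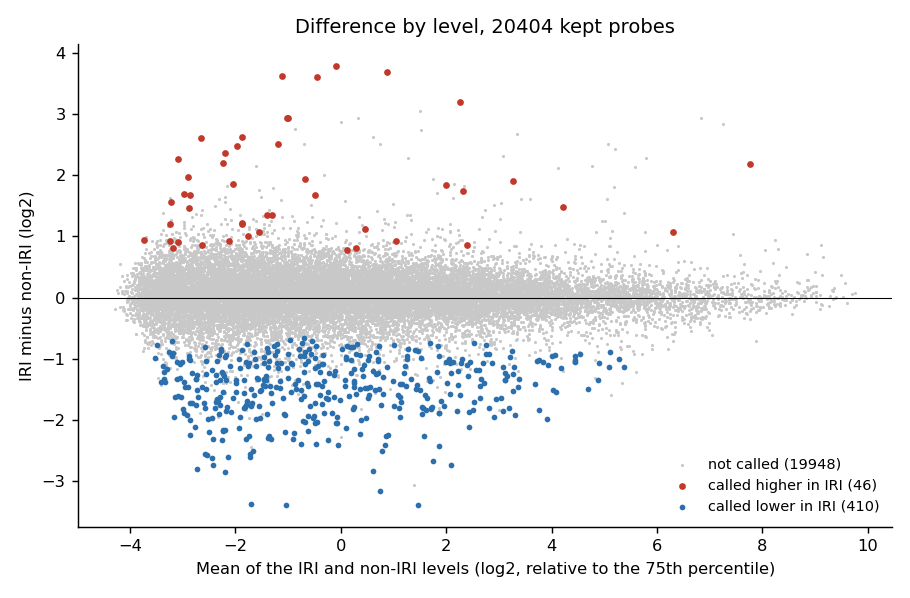
Difference between ATSC on injured and on uninjured liver (IRI minus non-IRI, log2) against the mean of both group levels (log2, relative to the 75th percentile of the array) for the 20404 kept probes. Red points are the 46 probes called higher, blue points the 410 called lower, and grey points the rest. Calls occurred over the whole range of levels, and falls were more numerous than rises.

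Genes of liver plasma proteins were the main named group among the rises. Fibrinogen beta chain, apolipoprotein C3, albumin, apolipoprotein A1, alpha-1-microglobulin, alpha-1-antitrypsin and hemopexin were all higher in ATSC on injured liver, by 1.68 to 3.79 on the log2 scale per probe. Of 39 hepatocyte marker genes on the array, 16 were kept. Every kept probe was called higher for 7 of these 16 and called lower for none, beside 0.228% and 2.04% of all kept genes. The difference was positive for 16 of 16 with a median of 0.84, against 53.4% positive and a median of 0.03 over all kept genes. The 23 markers that were not kept were dim on at least 1 liver array. The mean level of the 16 kept markers was 2.12, 2.25 and 1.87 on the IRI arrays, against 0.02, 0.49, 0.68 and 0.79 on the non-IRI arrays, and it was −2.38 in vitro. Of the 16, 13 were well above background in vitro too. In bulk RNA, fewer cells of a type and less RNA per cell cannot be told apart, and the part of host hepatocytes in these rises was not tested.

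Fgb encodes the beta chain of fibrinogen, the clot protein, and both of its kept probes were called higher. Its first probe stood at 2.57, 2.97 and 2.64 on the IRI arrays, against −2.24, −1.62, 0.55 and −0.56 on the non-IRI arrays. Its second probe stood at 1.55, 2.08 and 1.81 on the IRI arrays, against −3.06, −2.64, −0.66 and −1.55 on the non-IRI arrays. Neither probe overlapped between the groups, and the 3 IRI arrays lay close together while the non-IRI arrays were spread. The differences were 3.69 ± 0.58 (SE, adjusted p = 0.0129) and 3.79 ± 0.52 (adjusted p = 0.00714), a 12.9-fold and a 13.9-fold higher signal. The first probe lost its call without IRI 2 (adjusted p = 0.0633) or without IRI 3 (adjusted p = 0.066), and the second kept it without any single array. In vitro the probes stood at −3.86 and −4.27.

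The promoters of Fgb, albumin (Alb) and hemopexin (Hpx), which rose together and are textbook targets of liver transcription factors, are shown. Each line gives the 250 bases before the start that the RefSeq promoter table uses in assembly GRCr8, all on the minus strand: Fgb at chr2:170700876-170701125, Alb at chr14:17906980-17907229 and Hpx at chr1:169352156-169352405. Capitals mark matches, on either strand, to an HNF1 half-site (GTTAAT), a C/EBP-type site (TTGCNNAA) or a STAT-type site (TTCNNNGAA), and no matches to different motifs overlap. The Alb window overlaps the span of the RefSeq gene record by 64 bases, and the other windows lie outside theirs.
Fgb: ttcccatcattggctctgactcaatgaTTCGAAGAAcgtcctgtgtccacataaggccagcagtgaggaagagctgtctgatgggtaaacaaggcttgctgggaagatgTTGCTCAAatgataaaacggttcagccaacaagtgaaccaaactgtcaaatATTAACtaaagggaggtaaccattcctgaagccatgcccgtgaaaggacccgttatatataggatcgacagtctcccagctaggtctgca
Alb: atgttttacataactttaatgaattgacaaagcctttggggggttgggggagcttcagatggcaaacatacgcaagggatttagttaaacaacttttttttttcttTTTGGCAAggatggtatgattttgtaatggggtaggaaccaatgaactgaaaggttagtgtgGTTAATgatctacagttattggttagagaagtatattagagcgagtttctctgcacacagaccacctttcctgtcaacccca
Hpx: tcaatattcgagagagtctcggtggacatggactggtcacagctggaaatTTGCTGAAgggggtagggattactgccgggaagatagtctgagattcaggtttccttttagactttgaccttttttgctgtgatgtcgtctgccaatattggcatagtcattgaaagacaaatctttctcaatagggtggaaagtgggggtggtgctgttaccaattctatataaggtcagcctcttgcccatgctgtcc
Promoter sequences were found in the RefSeq table for 5 of the 7 hepatocyte genes that rose, and not for Apoa1 and Apoc3. The HNF1 half-site occurred in 2 of them (Fgb and Alb), against 6.45% of all 33469 promoters of the same length. The C/EBP-type site occurred in 3 (Fgb, Alb and Hpx), against 9.22% of all promoters. The STAT-type site occurred in 1 (Fgb), against 7.67%. The promoters of Ambp and Serpina1, not shown, held none of these motifs, so the 3 shown are those with a match. A match describes these letters and is not a bound site.

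Apoc3, an apolipoprotein of triglyceride-rich particles, was the other gene whose 2 kept probes were both called higher. Genes with 2 or more kept probes, all called higher, made up 0.0845% of 2366, and there were none without IRI 2 and 1 without IRI 3 or any 1 of the non-IRI arrays. The first Apoc3 probe stood at −1.72, −1.47 and −2.87 in IRI, against −3.78, −3.76, −4.05 and −3.19 in non-IRI. The second stood at −0.74, −0.40 and −1.92 in IRI, against −3.41, −3.39, −4.06 and −2.67 in non-IRI. The groups did not overlap on either probe, and IRI 3 lay nearest to the non-IRI arrays on both. The differences were 1.68 ± 0.35 (SE, adjusted p = 0.0488) and 2.36 ± 0.41 (adjusted p = 0.0218), and the probes also differed from each other in this difference (adjusted p = 0.0392 for probe minus probe). Unlike Fgb, Apoc3 in vitro was at −2.24 and −1.66, above every non-IRI array on both probes. Without IRI 1, IRI 2, non-IRI 1 or non-IRI 2 neither probe was called, with adjusted p from 0.0629 to 0.184, and without non-IRI 3 or non-IRI 4 the first probe was not called (0.0923 and 0.0646). With normexp background correction and bright background spots set to the median, the first probe differed by 0.60 and was not called (adjusted p = 0.147).

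The other hepatocyte rises rest on 1 kept probe each. Alb, the main plasma protein, stood at 4.20, 4.10 and 3.27 in IRI, against −0.59, 0.45, 1.98 and 0.76 in non-IRI. Apoa1, the main protein of high-density lipoprotein, stood at 0.47, 0.11 and 0.82 in IRI, against −2.73, −2.75, −1.36 and −3.06 in non-IRI. In both genes the groups were apart, and non-IRI 3 was the highest of the non-IRI arrays. The differences were 3.21 ± 0.53 for Alb (SE, adjusted p = 0.0174) and 2.94 ± 0.39 for Apoa1 (adjusted p = 0.00625).

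Ambp, the precursor of alpha-1-microglobulin and bikunin, stood at 0.82, 1.27 and 0.03 in IRI, against −4.13, −3.82, −2.03 and −1.73 in non-IRI. Serpina1, the plasma inhibitor of neutrophil elastase, stood at 0.98, 1.49 and 1.60 in IRI, against −3.55, −2.49, −0.42 and −2.52 in non-IRI. Hpx, which binds free heme, stood at 0.19, 0.36 and 0.32 in IRI, against −1.94, −1.75, −1.61 and −1.31 in non-IRI. Hpx had the tightest groups of these genes and the smallest adjusted p. The differences were 3.63 ± 0.61 for Ambp (SE, adjusted p = 0.0189), 3.61 ± 0.62 for Serpina1 (adjusted p = 0.0206) and 1.94 ± 0.18 for Hpx (adjusted p = 0.00122). F12, clotting factor XII and no member of the marker list, rose by 2.64 ± 0.39 (adjusted p = 0.00985).

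Apoa1 and Hpx kept their calls without any single array, and the others did not. Alb lost its call without IRI 1, IRI 2, IRI 3, non-IRI 2 or non-IRI 4 (adjusted p 0.0505 to 0.0813) and with arrays paired by replicate number (0.0957). Ambp lost it without any 1 of the IRI arrays or without non-IRI 2 (0.0533 to 0.0867). Serpina1 lost it without any 1 of the IRI arrays, non-IRI 2 or non-IRI 4 (0.0505 to 0.11), and F12 without IRI 3 (0.0558). The number of hepatocyte markers called was 3 without IRI 1, 2 without IRI 2, 3 without IRI 3, 3 with non-IRI 2 left out and 4 with non-IRI 4 left out. The direction of every named hepatocyte rise was the same in each of these fits.

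Further genes that hepatocytes express highly were among the called rises and were picked out after their values were seen. Spp2, a secreted phosphoprotein, rose by 2.48 ± 0.46 (SE, adjusted p = 0.0291), and Slc27a2, a very long chain acyl-CoA synthetase, by 2.20 ± 0.39 (adjusted p = 0.0231). Cyp2b3, a liver cytochrome P450, rose by 1.97 ± 0.39 (adjusted p = 0.0394), and Apoc4, an apolipoprotein of the Apoc family, by 1.56 ± 0.22 (adjusted p = 0.00801). None of the 6 kept genes of the list of drug and bile metabolism was called, and its median was 0.26 (0.42 without IRI 2 and 0.15 without IRI 3). With arrays paired by replicate number, Spp2, Slc27a2, Cyp2b3 and Apoc4 were not called (adjusted p 0.0631 to 0.108). Apoc4 was called without any single array. With normexp background correction and bright background spots set to the median, Apoc4 (0.48, adjusted p = 0.208) and Cyp2b3 (0.70, adjusted p = 0.107) were not called. Spp2 and Cyp2b3 were each lost without any array other than non-IRI 3 (adjusted p 0.0563 to 0.154), and Slc27a2 without any 1 of the IRI arrays, non-IRI 1 or non-IRI 4 (0.0526 to 0.0872).

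Of 21 kept acute phase genes, 6 were called higher and none lower, beside 0.228% and 2.04% of all kept genes, and 15 were positive, beside 53.4%. The median difference was 0.58. With single arrays left out it lay between 0.39 (without non-IRI 3) and 0.91 (without non-IRI 4). Where probes had to be well above background on all 8 arrays it was 0.16. In vitro, 14 of the 21 genes were well above background. Hpx and Fgb are shared with the hepatocyte list. Itih3, a heavy chain that binds hyaluronan, stood at 0.33, 0.10 and −0.24 in IRI, against −2.71, −3.07, −1.44 and −2.61 in non-IRI, a difference of 2.52 ± 0.36 (SE, adjusted p = 0.00876). Saa4, a serum amyloid A of lipoproteins, stood at 0.88, 0.82 and −0.33 in IRI, against −3.03, −3.29, −1.63 and −2.01 in non-IRI, a difference of 2.95 ± 0.46 (adjusted p = 0.0129). The groups did not overlap for either gene, and non-IRI 3 was the highest of the non-IRI arrays for both.

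Lcn2, which binds bacterial siderophores and is made by injured epithelia and neutrophils, stood at 3.52, 2.64 and 3.40 in IRI, against 1.18, 1.40, 1.77 and 1.41 in non-IRI. It rose by 1.75 ± 0.25 (SE, adjusted p = 0.00816). Hamp, which encodes the iron hormone hepcidin, rose by 1.46 ± 0.27 (adjusted p = 0.0276). Some acute phase genes were not called: haptoglobin Hp differed by 1.43 (adjusted p = 0.0714), Serpina3n by 0.25 (adjusted p = 0.862), and the rat acute phase protein A2m by −1.22 (adjusted p = 0.0591). The metallothioneins Mt1 and Mt2A, which respond to stress and metals, differed by −0.07 and −0.01. The list thus held members on both sides of 0.

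With arrays paired by replicate number, 3 acute phase genes were called in place of 6, and Itih3, Saa4 and Hamp were not (adjusted p = 0.0625, 0.0766 and 0.0736). Without IRI 2 or without IRI 3 the count was also 3. Saa4 was lost without IRI 2 (0.0642), Lcn2 without IRI 3 (0.0569), and Hamp without any 1 of the IRI arrays or without non-IRI 1 (0.0707 to 0.114). Hamp was also lost with normexp background correction and bright background spots set to the median (0.58, adjusted p = 0.121).

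**Figure D2:**
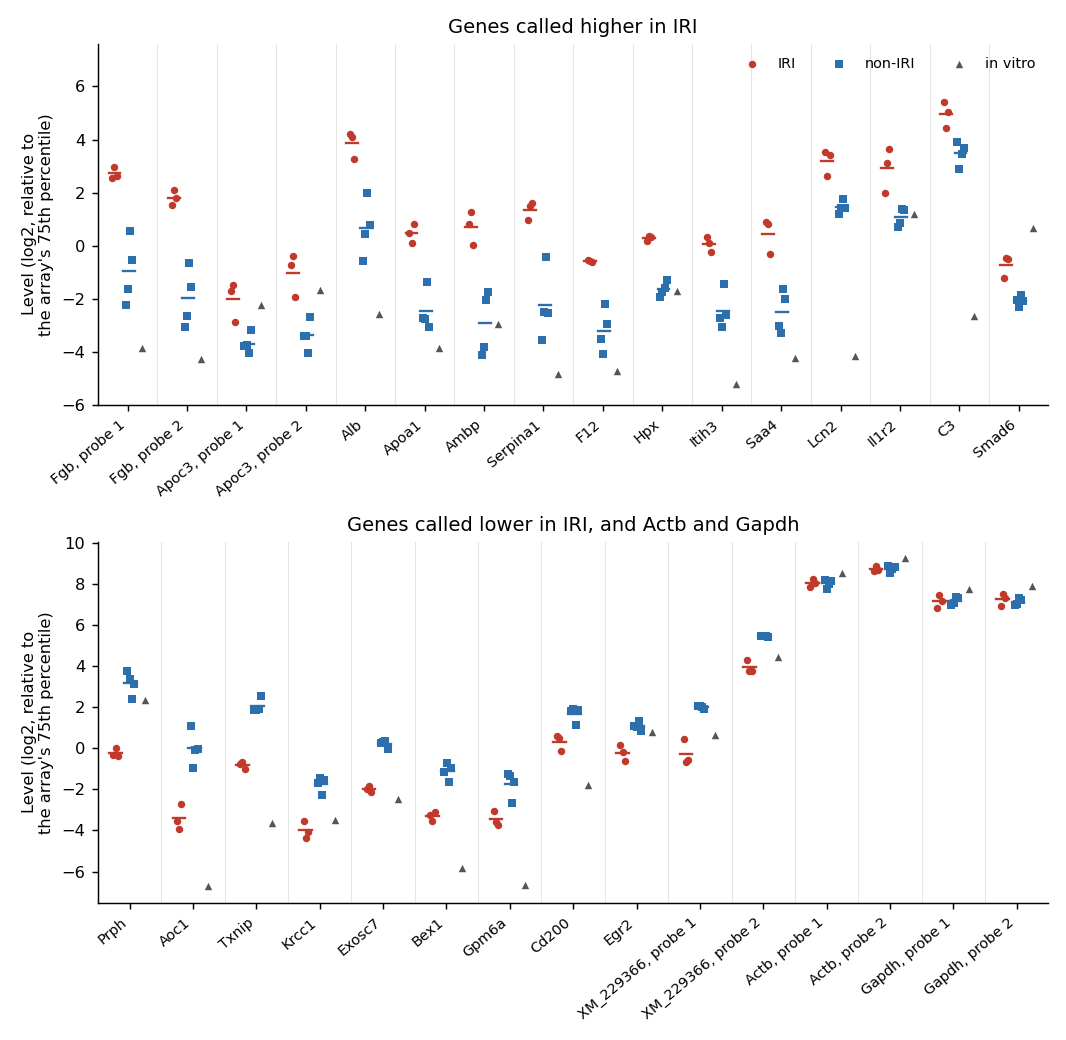
Level of each probe on each array (log2, relative to the 75th percentile of the array), with IRI as red circles, non-IRI as blue squares, the in vitro array as a grey triangle and bars at the group means. In the upper panel every IRI point of the 16 probes lies above every non-IRI point of the same probe. In the lower panel the order is the opposite for the genes called lower, and Actb and Gapdh overlap between the groups.

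Few neutrophil genes were called. All 10 kept neutrophil markers of 19 on the array had a positive difference, with a median of 1.41, against 53.4% positive over all kept genes. The 2 that were called higher, beside 0.228% of all kept genes, were Lcn2, shared with the acute phase list, and Il1r2. Il1r2, the decoy receptor for interleukin-1, stood at 1.97, 3.12 and 3.64 in IRI, against 0.69, 0.87, 1.39 and 1.33 in non-IRI. It rose by 1.84 ± 0.38 (SE, adjusted p = 0.0463) and lost its call without IRI 2, IRI 3 or any 1 of the non-IRI arrays (0.0633 to 0.183). The calprotectin subunits, the most abundant neutrophil cytosol proteins, did not pass: S100a9 differed by 2.74 (adjusted p = 0.0541) and S100a8 by 2.62 (adjusted p = 0.0673). S100a9 was called where non-IRI 2 (0.0122) or non-IRI 3 (0.0379) was left out. The mean level of the list was 0.63, 1.37 and 1.46 in IRI, against −0.03, −1.03, 0.44 and −0.40 in non-IRI, and only 1 of the 10 genes was well above background in vitro. The part of neutrophils in the extracts was not tested.

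Red cell genes had positive differences with a wide spread. The 5 kept erythroid genes of 10 on the array were all positive with a median of 2.51, against 53.4% positive over all kept genes, and none was called. Alas2, the first enzyme of heme synthesis in red cell precursors, stood at 2.37, 5.16 and 1.60 in IRI, against −0.34, −1.38, 0.80 and 0.85 in non-IRI, a difference of 3.06 ± 0.85 (SE, adjusted p = 0.136). IRI 2 was far above the other arrays, and the list median was 1.24 without it. The alpha globin gene Hba-a3, outside the list and picked out after its values were seen, stood at 8.87, 9.66 and 8.06 in IRI, against 6.41, 5.77, 7.26 and 7.22 in non-IRI. Near-identical alpha globin copies may share its probe. It rose by 2.19 ± 0.46 (adjusted p = 0.05, under the threshold before rounding), was at −3.51 in vitro, and lost its call without any single array (0.0515 to 0.175) and with pairing (0.144). How far blood in the extracts contributes to these differences was not tested.

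No macrophage gene was called. Of 24 kept macrophage and Kupffer cell markers, 20 had a positive difference, against 53.4% of all kept genes. Their median of 0.26 was 0.13 with non-IRI 2 left out and 0.40 with non-IRI 3 left out. Clec4f, a lectin of Kupffer cells, stood at 4.09, 3.83 and 4.80 in IRI, against 1.08, 2.42, 3.17 and 1.04 in non-IRI, a difference of 2.31 ± 0.52 (SE, adjusted p = 0.0681) that passed without non-IRI 3 (0.0194). Cd163, the scavenger receptor for hemoglobin, differed by 2.01 and 1.79 on its 2 probes (adjusted p = 0.198 and 0.22), and the first passed without non-IRI 3 (0.0387). The pan-macrophage genes Cd68 and Lyz2 differed by 0.05 and −0.04. The mean level of the list was 4.29 to 4.61 in IRI, against 3.60 to 4.52 in non-IRI, and −5.15 in vitro.

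Of 23 kept T and NK cell genes, 20 had a positive difference, against 53.4% of all kept genes. None was called, and the median was 0.28. That median was 0.18 without IRI 1 or non-IRI 4, 0.10 without IRI 3, 0.16 where non-IRI 2 and 0.53 where non-IRI 3 was left out. Of 8 kept genes of MHC class II, 1 had a positive difference and none was called. Their median was −0.39, and it lay between −0.58 (without IRI 1) and −0.26 (without IRI 2) with single arrays left out. RT1-Bb, a class II beta chain, differed by −1.40 (adjusted p = 0.282), and Ciita, the transactivator of class II genes, by −0.85 (adjusted p = 0.316). The 5 kept cholangiocyte genes had a median of −0.51 with none called, the 5 endothelial genes a median of 0.11, and the 5 B cell genes a median of 0.39. Leaving out single arrays put these medians between −0.81 and −0.19 for cholangiocyte, −0.13 and 0.44 for endothelial and 0.16 and 0.59 for B cell genes.

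Mesothelial genes mark the lining of the liver surface and the peritoneum. Of 8 kept, 1 was called lower, beside 2.04% of all kept genes. A negative difference was found for 7, where 53.4% of all kept genes had a positive one, and the median was −0.81. Gpm6a, a membrane glycoprotein, stood at −3.03, −3.60 and −3.75 in IRI, against −1.27, −1.37, −2.64 and −1.62 in non-IRI, a difference of −1.74 ± 0.34 (SE, adjusted p = 0.0398). It lost its call without IRI 2, IRI 3 or any non-IRI array except non-IRI 3 (0.104 to 0.209). Bnc1, a zinc finger factor of mesothelium, differed by −1.58 ± 0.33 (adjusted p = 0.0534) with no overlap between the groups, and was called with pairing (0.0219). The mean level of the list was 0.43 to 0.87 in IRI, against 1.12 to 1.80 in non-IRI, and −3.83 in vitro. Whether the amount of mesothelium differed between the extracts was not tested.

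Genes of the transferred cell type held no call. None of the 25 kept mesenchymal stromal genes was called, 12 were positive, beside 53.4% of all kept genes, and their median was 0.00. All 25 were well above background in vitro. Thy1, the surface protein CD90, had the smallest p of the list, with −1.60, −1.36 and −1.78 in IRI, against −0.94, −0.13, −1.03 and −0.00 in non-IRI. Its difference was −1.05 ± 0.29 (SE, adjusted p = 0.128), although the groups did not overlap. The 19 kept genes of collagens and collagen modification had a median of 0.04, and none was called. Col1a1, Col1a2 and Col3a1, the main fibrillar collagen chains, differed by −0.11, 0.04 and −0.09. Actb differed by 0.02 and 0.00 on its 2 probes, and Gapdh by −0.02 and 0.13.

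Stress and signalling lists held few calls. Of 22 kept genes of TGF-beta signalling and fibrosis, Smad6 alone was called, beside 0.228% of all kept genes called higher. Smad6, an inhibitor of bone morphogenetic protein signalling, stood at −1.22, −0.46 and −0.51 in IRI, against −2.06, −2.31, −1.87 and −2.10 in non-IRI, a rise of 1.36 ± 0.22 (SE, adjusted p = 0.0159). In vitro it stood at 0.66, above all 7 liver arrays. It was not called with pairing (0.0741) or without IRI 2, IRI 3 or non-IRI 4 (0.0577 to 0.103). Of 21 kept complement genes, C3 alone was called, beside the same share of all kept genes (0.228%). C3, the central component of the cascade, stood at 5.41, 4.44 and 5.05 in IRI, against 3.90, 2.90, 3.47 and 3.67 in non-IRI, a rise of 1.48 ± 0.30 (adjusted p = 0.0411). Its call was lost without IRI 1, IRI 3 or any 1 of the non-IRI arrays (0.051 to 0.197).

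Among 20 kept immediate early genes, Egr2 was called lower, beside 2.04% of all kept genes. This zinc finger factor stood at 0.15, −0.19 and −0.60 in IRI, against 1.08, 1.05, 1.33 and 0.83 in non-IRI, a difference of −1.29 ± 0.21 (SE, adjusted p = 0.0171). It was not called with pairing (0.073) or without IRI 2, IRI 3 or non-IRI 1 (0.055 to 0.0888). Fos, Jun and Atf3, the classic members, differed by −0.17, −0.33 and 0.13, none of them called. Of 18 genes of immune modulation, Cd200, a ligand that restrains macrophages, was called lower, again beside 2.04% of all kept genes. It stood at 0.60, 0.48 and −0.15 in IRI, against 1.82, 1.92, 1.12 and 1.86 in non-IRI, a difference of −1.37 ± 0.26 (adjusted p = 0.0345). Its call was lost without IRI 2, IRI 3 or any non-IRI array except non-IRI 3 (0.0904 to 0.162).

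Il1b, the inflammatory cytokine interleukin-1 beta, stood on its second probe at 4.62, 6.19 and 4.74 in IRI, against 3.15, 2.13, 3.89 and 3.07 in non-IRI. The difference was 2.12 ± 0.48 (SE, adjusted p = 0.0666) on that probe and 1.62 ± 0.45 (adjusted p = 0.139) on the first, with no overlap on either. Without non-IRI 3 the second probe was called (0.0465). Cxcl2, a chemokine for neutrophils, differed by 2.69 ± 0.87 (adjusted p = 0.196), with IRI 2 highest at 6.88. None of the 20 kept cytokine and chemokine genes had every probe called, 2 had 1 probe called lower (Il33 and Csf1), and the list median was 0.05 (−0.17 to 0.13 with single arrays left out). Il22ra2, a soluble antagonist of interleukin-22 that lies outside the list and was picked out after its values were seen, stood at −1.36, −1.17 and −0.83 in IRI, against −2.88, −3.21, −2.69 and −3.11 in non-IRI. It rose by 1.85 ± 0.20 (adjusted p = 0.002).

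No gene was called among 31 of hypoxia and glycolysis (27 positive, median 0.26), 30 of oxidative stress (22 positive, median 0.21) or 21 of the unfolded protein response (20 positive, median 0.22). Over all kept genes 53.4% were positive. The hypoxia and glycolysis median was 0.58 without IRI 1, 0.14 with IRI 2 left out and 0.11 where non-IRI 1 was left out. Hmox1, which degrades heme, stood at 5.04, 5.93 and 6.09 in IRI, against 4.07, 4.64, 4.66 and 5.00 in non-IRI. It did not overlap between the groups, its difference of 1.09 ± 0.30 had an adjusted p of 0.131, and it was called with pairing (0.0452) and without IRI 1 (0.0394). Likewise none of the kept genes of cell cycle (28), interferon response (23), lipid and cholesterol synthesis (19), oxidative phosphorylation (34), proteases and their inhibitors (16), adipocyte markers (9) or housekeeping (15) was called on every probe. Heat shock (14 genes), growth factors (26) and apoptosis and p53 (25) each held 1 gene with a called probe beside probes that were not called. The medians of these lists lay between −0.06 and 0.25, and with single arrays left out between −0.27 (interferon response) and 0.49 (adipocyte markers), both without IRI 1.

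**Figure D3:**
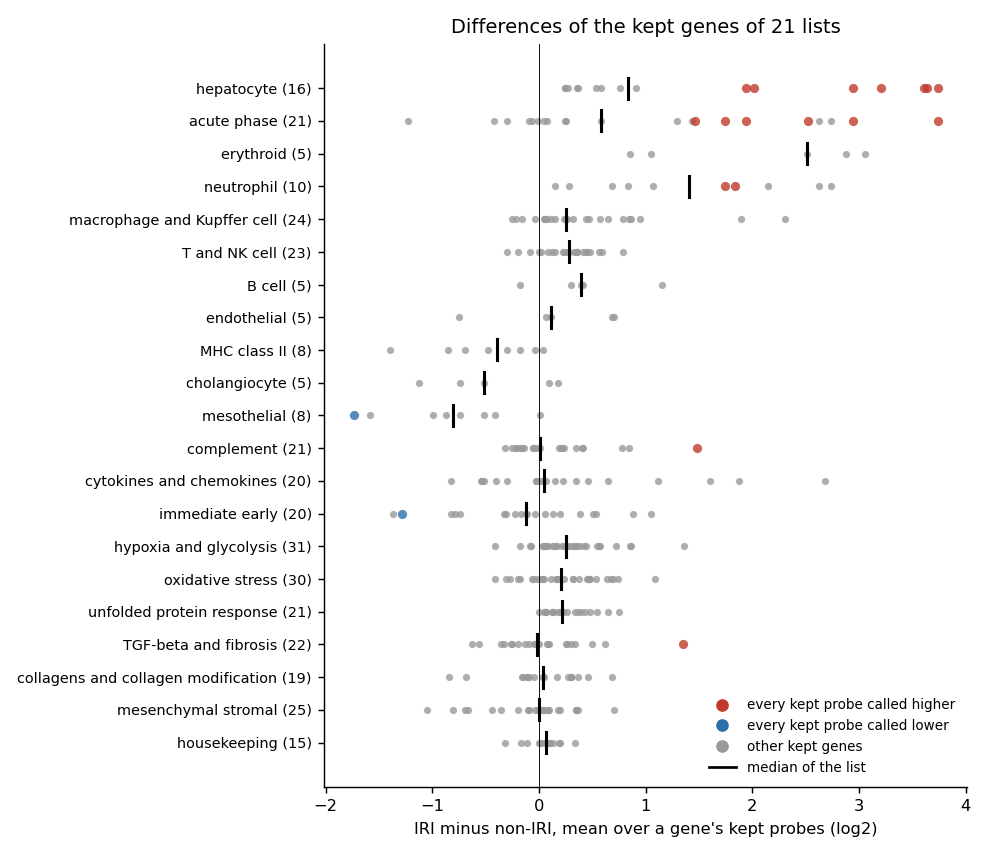
Difference between ATSC on injured and on uninjured liver (IRI minus non-IRI, log2, mean over a gene's kept probes) for the kept genes of the lists named on the vertical axis, with the number of kept genes in brackets. Red points had every kept probe called higher, blue points every kept probe called lower, and black bars are list medians. The hepatocyte, erythroid and neutrophil lists lie to the right of 0, the mesothelial list to the left, and the mesenchymal stromal list around 0.

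The falls differed in kind from the rises. Of 359 genes with every kept probe called lower, 303 had no gene symbol, whereas of 40 with every kept probe called higher 9 had none. Among all 17581 kept genes, 8462 had a symbol. The share of kept probes called lower was 11.5% for the 557 probes with no accession, 8.44% for 936 probes of model or non-coding RefSeq records, 4.30% for 1791 probes of Ensembl transcripts and 0.88% for 11248 probes of curated RefSeq transcripts. It was 1.56% for 3590 probes of other mRNA or expressed sequence tag (EST) records and 1.53% for 2282 probes of assembled EST clusters. Over all kept probes it was 2.01%. Rises did not follow that order, with 0.329% of probes of curated transcripts called higher and 0.18% of probes with no accession (1 probe). With kept probes split by mean level into 4 sets of 5101, the share called lower was 1.73%, 2.61%, 2.22% and 1.49% from dim to bright.

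Genes with several kept probes allow a fall to be checked on a second probe of the same gene. Such a second look rarely showed the same fall. In 50 genes with 2 or more kept probes, 52 probes were called lower with a median of −1.23, and the mean of each gene's other kept probes had a median of −0.01. The other probes had the same sign for 27 of 52 and reached 0.5 times the size of the called fall for 6. The 2 probes of XM_229366, each set against the other, are among the 6. A fit of each probe minus the gene's other probes, over 5189 probes of which 4.1% were called, called 39 of the 52. In 38 of the 39 the called probe fell more than the gene's other probes. Those probes were picked by their falls on the same arrays, so this count is a description. For 8 probes called higher in 6 genes the median was 1.79, the median of their other probes was 1.06, 6 had the same sign and 4 reached 0.5 times the size. Those 4 were the 2 probes of Fgb and the 2 of Apoc3, each set against the other, so both genes count 2 times. The other probes of the remaining genes differed by 0.45 (Kcnk6), 0.40 (Steap4), −0.07 (Adra2b) and −0.23 (an unnamed Ensembl transcript) and did not reach that size. The fit of each probe minus the gene's other probes was added after the data had been seen. Over all 2366 genes, 59.9% had all kept probes on the same side of 0. The groups did not overlap on any kept probe of 45 genes on the higher side (1.9%) and 23 on the lower side (0.972%).

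**Figure D4:**
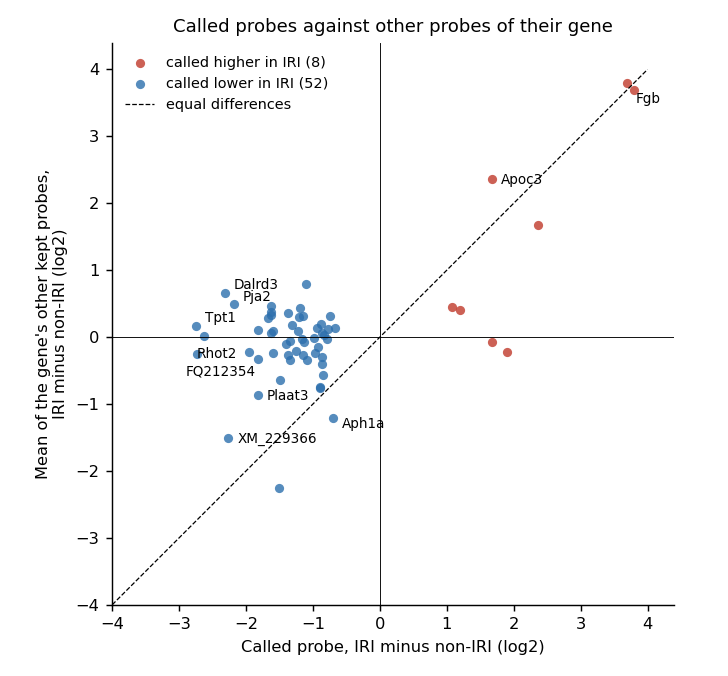
Difference of each called probe (IRI minus non-IRI, log2) against the mean difference of the other kept probes of its gene, for the 8 probes called higher (red) and the 52 called lower (blue) in genes with 2 or more kept probes. The dashed line marks equal differences. Both Fgb probes lie on it, while most blue points lie near 0 on the vertical axis.

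Tpt1, the translationally controlled tumour protein gene, is an example with 3 kept probes. One probe stood at 1.09, 0.54 and 0.53 in IRI, against 3.63, 3.79, 3.34 and 3.12 in non-IRI, a difference of −2.75 ± 0.22 (SE, adjusted p = 0.000861). The other probes differed by 0.23 ± 0.24 and 0.11 ± 0.20 (adjusted p = 0.711 and 0.847), and their groups overlapped. The falling probe stood at 0.52 in vitro, next to the IRI arrays. Only 1 of 3 measurements of this gene thus separated the groups.

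Rhot2, a mitochondrial GTPase, had 1 probe at −3.23, −4.12 and −3.94 in IRI, against −0.98, −1.26, −0.88 and −1.43 in non-IRI, a difference of −2.63 ± 0.25 (SE, adjusted p = 0.00122). Its other probe differed by 0.01 ± 0.17 (adjusted p = 0.984). Pja2, a ubiquitin ligase, had 1 probe at −3.09, −3.32 and −3.55 in IRI, against −1.12, −0.98, −1.21 and −1.24 in non-IRI, a difference of −2.18 ± 0.16 (adjusted p = 0.000861). The other Pja2 probe leaned the other way, at 0.49 ± 0.16 (adjusted p = 0.201), with IRI above non-IRI on every array.

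Lap3, a leucine aminopeptidase, fell by 1.81 ± 0.20 on 1 probe (SE, adjusted p = 0.00259), while its other probes differed by −0.15 and 0.36. Dalrd3 fell by 2.31 ± 0.45 on 1 probe (adjusted p = 0.0362), and its other probes differed by 0.83 and 0.49. Ash1l, a histone methyltransferase, fell by 1.63 ± 0.18 on 1 probe (adjusted p = 0.00228) and differed by 0.47 on the other. Hsp90ab1, a cytosolic chaperone picked out after its values were seen, fell by 1.63 ± 0.23 on 1 probe (adjusted p = 0.00876) and differed by 0.47 and 0.28 on the others. The Dalrd3 call was lost without any array other than non-IRI 4 (0.0519 to 0.174), and that of Hsp90ab1 without IRI 3 (0.0608). The falling probes were dim in IRI, with means of −3.49 (Lap3), −3.59 (Dalrd3), −3.84 (Ash1l) and −3.52 (Hsp90ab1). With normexp background correction and bright background spots set to the median, none of these falls was called. They were then −0.63, −0.88, −0.52 and −0.51 in the same order (adjusted p 0.085 to 0.211).

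In all, 30 genes had a called probe and a probe of the other sign. With arrays paired by replicate number there were 15. There were 12 without IRI 2, 9 without IRI 3, 17 when either non-IRI 1 or non-IRI 2 was left out and 19 without non-IRI 4.

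**Figure D5:**
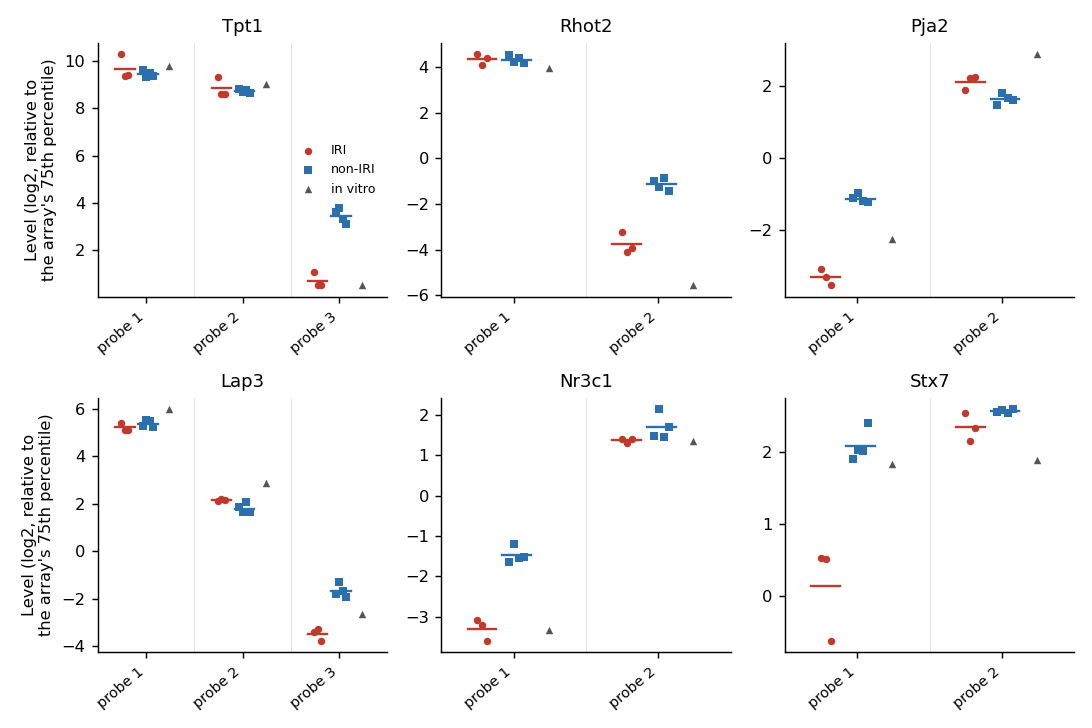
Level of each kept probe of 6 genes on each array (log2, relative to the 75th percentile of the array), with IRI as red circles, non-IRI as blue squares, the in vitro array as a grey triangle and bars at the group means. In each gene 1 probe is lower in IRI than in non-IRI without overlap, by 1.81 to 2.75, while the other probes differ by at most 0.49 in size.

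Nr3c1, the glucocorticoid receptor, had no probe of the other sign and still differed between probes. One probe stood at −3.08, −3.20 and −3.59 in IRI, against −1.63, −1.19, −1.56 and −1.52 in non-IRI, a difference of −1.82 ± 0.19 (SE, adjusted p = 0.00176). The other stood at 1.40, 1.31 and 1.40 in IRI, against 1.49, 2.14, 1.45 and 1.71 in non-IRI, a difference of −0.33 ± 0.19 (adjusted p = 0.472). Stx7, a syntaxin of late endosomes, fell by 1.96 ± 0.29 on 1 probe (adjusted p = 0.0109) and differed by −0.23 on the other (adjusted p = 0.518). With pairing the Stx7 fall had an adjusted p of 0.0506. For both genes the probe difference passed its own fit (adjusted p = 0.00419 and 0.0229).

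In the next genes, too, a called fall stood beside another probe of the same sign. The unnamed RefSeq model record XM_229366 was the only gene of 2366 with every kept probe called lower (0.0423%), and without IRI 1 or IRI 2 there were 2. Its first probe stood at 0.46, −0.69 and −0.56 in IRI, against 2.06, 2.03, 1.98 and 1.92 in non-IRI. Its second stood at 4.30, 3.74 and 3.78 in IRI, against 5.44, 5.47, 5.45 and 5.41 in non-IRI. The differences were −2.26 ± 0.27 and −1.50 ± 0.17 (SE, adjusted p = 0.00325 and 0.00297), with IRI 1 highest of the IRI arrays on both. The difference also differed between its probes (adjusted p = 0.0384 for probe minus probe). This record was picked out after its values were seen.

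Plaat3, a phospholipase of fat tissue, fell by 1.83 ± 0.33 on 1 probe (SE, adjusted p = 0.0273) and differed by −0.87 ± 0.22 on the other (adjusted p = 0.0984). Aph1a, a subunit of gamma-secretase, fell by 0.70 ± 0.14 (adjusted p = 0.0471) and differed by −1.20 ± 0.29 on the other probe (adjusted p = 0.0865). Spryd3 fell by 1.50 ± 0.25 (adjusted p = 0.0182) and differed by −0.65 on the other probe (adjusted p = 0.141). In all 3 genes the groups did not overlap on either probe. The probes of Plaat3 differed from each other in this difference (adjusted p = 0.0292 for probe minus probe), and those of Aph1a and Spryd3 did not pass that fit (0.287 and 0.132). With pairing none of the 3 was called (adjusted p 0.0684 to 0.171). The Plaat3 call was lost without any array other than IRI 1 (0.054 to 0.152), the Aph1a call without any single array (0.055 to 0.237), and the Spryd3 call without IRI 2, IRI 3 or any non-IRI array except non-IRI 3 (0.055 to 0.104).

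Ccn1, a matrix-bound growth regulator among the immediate early genes, fell by 0.90 ± 0.19 on 1 probe (SE, adjusted p = 0.0497) and differed by −0.76 on the other, where the groups overlapped. Il33, an alarmin cytokine, fell by 1.37 ± 0.28 on 1 probe (adjusted p = 0.044) and differed by −0.27 on the other (adjusted p = 0.711). Trmt10a, a transfer RNA methyltransferase, fell by 1.25 ± 0.16 on 1 probe (adjusted p = 0.00525) and differed by −0.20 on the other. The probes of Il33 and Trmt10a differed from each other (adjusted p = 0.00787 and 0.0074 for probe minus probe), and those of Ccn1 did not pass (0.814). Ccn1 was not called with pairing (0.102) or without any single array (0.0554 to 0.242). Il33 was not called with pairing (0.068) or without any array other than non-IRI 1 (0.0799 to 0.224).

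A fit on the mean of each gene's kept probes, added after the data had been seen, called 1 of 2366 genes higher (0.0423%) and 7 lower (0.296%). The rise was Fgb, at 3.74 ± 0.53 (SE, adjusted p = 0.0365). The falls were XM_229366 (−1.88), Rhot2 (−1.31), Stx7 (−1.09), the mRNA record FQ212354 (−1.08), Spryd3 (−1.07), Nr3c1 (−1.07) and Pja2 (−0.85), with adjusted p from 0.0143 to 0.045. For Rhot2, Pja2, Stx7, Nr3c1 and FQ212354 the mean rested on 1 falling probe.

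On the rising side, Steap4 and Kcnk6 had 1 called probe and another of the same sign. Steap4, a metalloreductase, rose by 1.20 ± 0.20 on 1 probe (SE, adjusted p = 0.0202) and differed by 0.40 on the other (adjusted p = 0.532). Kcnk6, a potassium channel, rose by 1.07 ± 0.21 (adjusted p = 0.0394) and differed by 0.45 (adjusted p = 0.172), with no overlap on either probe. Neither was called with pairing (0.128 and 0.139). Both were lost without IRI 2, IRI 3, non-IRI 2 or non-IRI 4 (0.0572 to 0.221), Steap4 also without non-IRI 3 (0.0515), and Kcnk6 also without non-IRI 1 (0.0958).

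The largest falls among genes with a symbol came from genes with 1 kept probe, so no second probe bears on them. Prph encodes peripherin, an intermediate filament of peripheral neurons. It stood at −0.35, 0.04 and −0.39 in IRI, against 3.74, 3.35, 2.41 and 3.15 in non-IRI, a difference of −3.40 ± 0.30 (SE, adjusted p = 0.00105). In vitro it stood at 2.36, above all 3 IRI arrays and below all 4 non-IRI arrays. Aoc1, a diamine oxidase that degrades histamine and putrescine, stood at −3.55, −3.94 and −2.69 in IRI, against 1.08, −0.97, −0.08 and −0.05 in non-IRI, a difference of −3.39 ± 0.47 (adjusted p = 0.00735). It was at −6.72 in vitro.

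Txnip, the thioredoxin inhibitor that responds to glucose, stood at −0.75, −0.67 and −1.02 in IRI, against 1.85, 1.86, 1.89 and 2.53 in non-IRI. It fell by 2.85 ± 0.21 (SE, adjusted p = 0.000861) and was at −3.64 in vitro. Exosc7, a subunit of the RNA exosome, stood at −1.99, −1.83 and −2.15 in IRI, against 0.27, 0.30, 0.33 and −0.03 in non-IRI, a difference of −2.21 ± 0.16 (adjusted p = 0.000861). Krcc1 fell by 2.26 ± 0.26 (adjusted p = 0.00302) and Bex1, a small brain-expressed protein, by 2.18 ± 0.23 (adjusted p = 0.00207). Their in vitro levels were −2.46 for Exosc7, −3.49 for Krcc1 and −5.83 for Bex1, each below all 4 non-IRI arrays. All 6 single-probe falls kept their calls without any single array and with pairing. Krcc1 lost its call with normexp background correction and bright background spots set to the median (−0.70, adjusted p = 0.125).

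Krt14, an epithelial keratin, and Actc1, the cardiac alpha actin, were picked out after their values were seen. Krt14 stood at 1.34, 2.05 and 0.72 in IRI, against 4.20, 3.56, 2.71 and 3.52 in non-IRI, a difference of −2.12 ± 0.39 (SE, adjusted p = 0.0301). Actc1 stood at −3.64, −2.74 and −2.91 in IRI, against −1.22, −1.25, −1.07 and −1.42 in non-IRI, a difference of −1.86 ± 0.23 (adjusted p = 0.00405). Krt14 lost its call without IRI 1, IRI 3 or any non-IRI array except non-IRI 3 (0.0657 to 0.142), and Actc1 kept it.

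The in vitro array gives a measurement on slide 1 that does not belong to the injured group. For the 410 probes called lower, it lay nearer to the IRI mean for 304 (74.1%) and below the non-IRI mean for 381 (92.9%). For probes that were not called, those shares were 51.9% and 38.5%. For the 46 probes called higher, it lay nearer to the IRI mean for 11 (23.9%). The median in vitro level of the probes called lower was 0.41 above IRI and 1.08 below non-IRI. The culture also differs from both liver groups in its setting, so these shares do not separate slide from condition, which was not tested.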

How the data were processed

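RNA of each sample was hybridised to Agilent Whole Rat Genome arrays in 1 colour (Cy3). The deposited scanner files hold a processed signal intensity per spot, made by the authors with Feature Extraction 11.0.1.1 per the file headers (9.1 per the submitters' processing notes). A value table with log2 values that the authors deposited served as an alternative. Here, control spots (1639) and outlier spots were left out (45 to 117 per array). Processed signals were put on the log2 scale, the 75th percentile over the 43379 non-control spots was subtracted, and the spots of a probe were averaged. A probe counted as well above background where at least 0.5 of its usable spots were. The 3 IRI and 4 non-IRI arrays were compared with limma 3.58.1 (lmFit and eBayes) in R 4.3.3, with Benjamini-Hochberg adjustment over 20404 probes. There were 5 residual degrees of freedom per probe. The fit was also run on simulated data with independent noise and no slide effect, so that run cannot tell group from slide. An exact permutation test of 3 against 4 arrays cannot go below p = 0.0571. The number of arrays limits the precision. Genes were named through RefSeq accessions (GRCr8), which gave a symbol to 17541 of 41012 probes, and lists through symbols and synonyms.

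Named genes were the largest rises and falls of genes with 2 or more agreeing probes, of genes with 1 kept probe, and of genes whose probes differ in sign, up to 3 genes of smallest p per list, and Actb and Gapdh. Where a gene outside this rule is named, the text says so, except for list members given as examples. The comparison, the members and the lists were chosen with earlier results of these data known.

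Replicate numbers come from the sample titles. Deviations from the group means correlated at 0.279, 0.221 and 0.108 for numbers 1, 2 and 3. Arrays of unlike number were not compared in this way, so these values cannot show whether the numbers mark pairs. In levels, IRI 1, IRI 2 and IRI 3 each correlated best with non-IRI 3 (0.976, 0.974 and 0.975). The main fit does not pair arrays, and the paired fit is given as an alternative. The number is also the position on the slide. Alternatives covered scaling, background correction, filters, array weights, pairing and leaving out single arrays.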

Additional observations from a re-analysis of the deposited data

Results flagged for a closer look

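Among 128 groups of 4 non-IRI values, 5 held an array whose gap to its nearest neighbour, as a share of the range of the group, passed Dixon's critical value for 4 samples. Chance alone flags about 1 in 20 groups. Txnip was highest on non-IRI 4 at 2.53. Exosc7 was lowest on non-IRI 4 at −0.0314. Cd200 was lowest on non-IRI 3 at 1.12. Cyp2b3 was highest on non-IRI 3 at −2.73. The probe of Trmt10a that was not called was highest on non-IRI 2 at 2.06. Each of these values lay on the same side of the IRI arrays as the other non-IRI values of its probe.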

How the results depend on the processing

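Median scaling, quantile normalization, a stricter filter on spots, all 8 arrays in the fit, the authors' value table, a variance trend and a minimum log2 difference of 1 gave 36 to 57 probes higher and 341 to 468 lower. They left the counts of genes with agreeing or opposed probes, and of hepatocyte and acute phase genes called higher, within 1.5 times of those reported. Background correction with normexp, run on the median signal because the files hold no mean signal, called 0 probes in either direction, and 0 for every other count, with 922 probes at an unadjusted p under 0.05 in limma. Under it 2 rises had a negative difference, Steap4 at −0.0947 and Apoc4 at −0.071. With very bright background spots set to the median, an alternative chosen after seeing the data, normexp called 51 higher and 371 lower, with 1 gene agreeing on a rise and 19 with opposed probes. It did not call the falls of Aph1a, Ash1l, Dalrd3, Gpm6a, Hsp90ab1, Krcc1, Lap3 and Trmt10a named above. Nor did it call the rises of Apoc4, Cyp2b3, Hamp, Steap4 and the first Apoc3 probe (adjusted p 0.0706 to 0.211 over all of these). Probes well above background on at least 3 of 7 arrays gave 88 higher, 640 lower, 4 genes agreeing on a rise and 47 opposed, from 23827 probes. Requiring all 8 arrays gave 1 gene agreeing on a rise and 3 acute phase genes, from 18982 probes. Array weights gave 1703 higher and 1919 lower, 47.0% of calls higher against 10.1%, with 47 genes agreeing on a rise, 25 on a fall, 288 opposed and 10 acute phase genes. Probes with a symbol alone gave 22 higher and 64 lower (25.6% higher), with 1 gene agreeing on a rise, 0 on a fall and 15 opposed, from 10692 probes. With the replicate number as a block, which pairs arrays 1 to 3 and leaves non-IRI 4 out of the difference, limma called 21 higher, 246 lower, 15 opposed and 3 acute phase genes, and 230 of the 410 falls and 14 of the 46 rises were among its calls. Apart from fewer or more probes tested, the cause of these shifts was not tested. Leaving out single arrays gave 10 to 87 higher, 165 to 445 lower, 0 to 2 genes agreeing on a rise, 1 to 2 on a fall, 9 to 24 opposed, 3 to 9 acute phase genes and 2 to 6 hepatocyte genes. Calls for probes near background rest on signals that the filter only places above it on every liver array, and 22 probes seen only on every IRI array and 227 seen only on every non-IRI array were left out.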
